A study of Mus musculus with 16 samples.

Results

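The 78 genes whose symbol is Mrpl or Mrps followed by a digit, of the 16707 genes with a normalised expression value, were examined in primary mouse astrocytes. Of these, 49 carry names of the large subunit of the mitochondrial ribosome (Mrpl) and 29 names of the small subunit (Mrps). Astrocytes were isolated from the brains of pups at postnatal day 6 by selection with beads for the surface antigen ACSA2 and grown in serum-free medium with HB-EGF for about 10 days. Cultures came from 4 WT litters and 4 litters lacking the mitochondrial NOD-like receptor NLRX1 (NLRX1-/-, written Nlrx1-/- or KO here). From each litter came 1 culture given vehicle and 1 stimulated for 24 h with IFNγ, a cytokine, at 10 ng/mL plus 500 ng/mL of the bacterial cell wall component lipopolysaccharide (LPS). This gave 16 libraries in 4 groups of 4. Each litter has 1 genotype, so treatments were compared within litters and genotypes between litters.

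The mitochondrial ribosome translates the few messages of the mitochondrial genome, all of which encode subunits of the respiratory chain and ATP synthase. Its RNAs are made in the organelle, whereas its proteins are encoded in the nucleus, translated in the cytosol and imported. The small subunit decodes the message and the large subunit forms the peptide bond at the inner membrane. Some of the proteins have bacterial counterparts, and others were acquired by mitochondria and have none. By their names and textbook assignments, 45 of the 78 belong to the conserved class and 32 to the mitochondria-specific class, and Mrps36 is now regarded as a component of the oxoglutarate dehydrogenase complex and not of the ribosome. Mrps18a and Mrps30, although named for the small subunit, are placed in the large one. Mrps18a and Mrps18b are counted in the mitochondria-specific class, although they are paralogs of bacterial S18, as is Mrps18c of the conserved class.

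The libraries held 27259420 to 43752903 read pairs. Nlrx1 lay between 4.08 and 4.44 log2 CPM (the deposited scale, read counts relative to the library total after TMM scaling) in the 8 WT libraries and between 1.09 and 2.96 in the 8 KO libraries, with no overlap. All 9 astrocyte markers examined were present, with a summed level of 3115 to 6148 TPM (a share of the library's transcripts, corrected for length) in WT and 2481 to 4434 TPM in KO libraries. Microglial markers summed to at most 3.70 TPM, and Cx3cr1 and Itgam of the 11 were under 0.1 TPM in every library. Only 1 of the 11 had enough reads for a test. Its log2 response to LPS + IFNγ was 1.78 in WT, which was not called, and 2.26 in KO, which was called higher (edgeR). Markers of the oligodendrocyte lineage were also present, at 1554 to 3176 TPM. Stimulated KO litters 2 and 4 had the lowest astrocyte sums of their group (2501 and 2481 TPM, against 2901 and 3557 TPM in litters 1 and 3) and the lowest sums of 4 cell-cycle genes (253 and 296 TPM, against 477 and 383 TPM). The vehicle cultures of KO litters 2 and 4 already had the lowest astrocyte sums of their group (2623 and 2971 TPM, against 3638 and 4434 TPM). Their vehicle sums of the oligodendrocyte lineage were the highest (3176 and 2968 TPM, against 2870 and 2411 TPM). In bulk RNA, fewer cells of a type and less RNA per cell cannot be told apart. Counts could be used for 77 members; for Mrpl20, 0 to 31 reads per library belonged to transcripts that could be paired with its symbol, so it is described from the deposited log2 CPM alone.

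Promoter windows from RefSeq (250 bases before and 50 after the start, matched by symbol for 69 of the 78 members and 27025 symbols in all, GRCm38.p6) were searched on both strands for short motifs. The core of the ETS site, CCGGAAG, was present in 26 of the 69 member windows (37.7%) and in 9.93% of all windows. The site of YY1, AAGATGGC, was present in 12 (17.4%, against 3.19% of all), and that of NRF1, a factor known for nuclear genes of mitochondrial proteins, GCGCATGC, in 8 (11.6%, against 3.05%). Matches to the NF-kB pattern GGGNNTTTC were found in 1 window (1.45%, against 5.06%), in Mrpl23, and to the interferon-type pattern GAAANNGAA in 7 (10.1%, against 9.76%). The E-box CACGTG was found in 5 (7.25%, against 8.09%). The windows of cytosolic ribosomal protein genes held the ETS core in 40.0% of cases and the NRF1 letters in 5.00%. Those of nuclear respiratory-chain genes held them in 25.4% and 14.9%, and the YY1 site in 14.9%. Of the 8 member windows with the NRF1 letters, 7 were among the 43 large-subunit windows (16.3%) and 1 among the 26 small-subunit windows (3.85%). These are matches of letters, and not sites of binding. The following 30-base stretches, in the direction of the gene, show the NRF1 letters (capitals, with any overlapping second match) of 6 members; coordinates are GRCm39, from an exact match of the window to that genome. They are shown because these letters are among those more frequent in member windows than in all windows and because Mrpl32 holds 3 of them and Mrps18b holds 2.
Mrpl10: cccagctccacGCATGCGCatagcggccct (chr11:96932263-96932292, strand +)
Mrpl17: gccgagttactGCGCATGCgtcctctgaga (chr7:105460287-105460316, strand -)
Mrpl32: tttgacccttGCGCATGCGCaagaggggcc (chr13:14787690-14787719, strand -)
Mrpl32: aagaggggcctGCGCATGCtctgagcgagg (chr13:14787670-14787699, strand -)
Mrpl32: gcggacttaacGCATGCGCtcagcccgcgt (chr13:14787626-14787655, strand -)
Mrpl33: taccggaacccGCGCATGCcccggaagtag (chr5:31771272-31771301, strand +)
Mrpl9: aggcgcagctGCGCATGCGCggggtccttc (chr3:94350605-94350634, strand +)
Mrps18b: aacggcccgacGCATGCGCactgggagcac (chr17:36227537-36227566, strand -)
Mrps18b: gcgtgtcccgaGCATGCGCagtcgctcttc (chr17:36227286-36227315, strand -)
Mrps22, one of the members higher in stimulated KO cultures below, has an ETS core whose first base lies 11 bases before its start. The 250 bases before the start (chr9:98483733-98483982, GRCm39, strand -, outside annotated exons) are as follows, with the core in capitals.
Mrps22: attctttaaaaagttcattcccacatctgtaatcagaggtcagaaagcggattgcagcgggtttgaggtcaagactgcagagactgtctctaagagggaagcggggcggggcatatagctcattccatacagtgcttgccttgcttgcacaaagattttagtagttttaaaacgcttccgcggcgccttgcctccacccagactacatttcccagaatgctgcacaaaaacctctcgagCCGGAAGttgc
The member with the largest response, Mrps6, starts next to another gene. Slc5a3, the myo-inositol transporter, starts in RefSeq at chr16:91855210 and Mrps6 at chr16:91855224 on the same strand, 14 bases apart, and their annotated genes overlap by 29397 bases. The 30 bases around both starts (chr16:91855202-91855231, GRCm39, strand +) are given with the 14 bases from the first base of Slc5a3 up to that of Mrps6 in capitals.
Slc5a3 and Mrps6 starts: cgcacggtGCTTTCGCCGTCCGggagctga

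Members differed widely in level. On the TPM scale, Mrps6 had the highest mean over the 16 libraries, 880.1 TPM, with a range of 439.8 to 1431 TPM. Its place rests on the stimulated libraries: in vehicle its mean was 539 ± 36.0 TPM in WT and 519.7 ± 102 TPM in KO (SD, n = 4), against 476 ± 66.1 and 585 ± 56.0 TPM for Mrpl52, and the ranges of both genes overlapped. Over all libraries Mrpl52 followed at 541 TPM (392 to 667), Mrps21 at 338 TPM (212 to 415) and Mrpl33 at 332 TPM (270 to 380). The ranges of Mrps21 and Mrpl33 overlapped almost wholly, so these neighbours are not ordered by these data. The lowest members were Mrpl19 at 11.3 TPM (9.81 to 12.8), Mrpl35 at 12.6 TPM (10.9 to 14.4), Mrpl57 at 14.8 TPM (10.2 to 19.6) and Mrpl15 at 19.2 TPM (14.6 to 23.2). Their ranges also overlapped from each to the next. Both ends of the order therefore hold proteins of the large subunit, and 2 of the 4 highest belong to the small one.

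The median level of the large subunit was 71.7 ± 2.33 TPM (SD, n = 4 litters) in WT vehicle cultures, and that of the small subunit was 57.5 ± 2.29 TPM. In stimulated WT cultures the medians were 76.4 ± 3.13 and 63.1 ± 2.84 TPM. The KO medians were 76.4 ± 1.31 and 63.8 ± 5.12 TPM in vehicle and 79.4 ± 3.16 and 65.9 ± 2.50 TPM after LPS + IFNγ. On the log2(TPM + 1) scale the large-subunit median exceeded that of the small subunit by 0.28 ± 0.07 over the 16 libraries, and it was the higher in every library (0.10 to 0.43). On the log2 CPM scale, which is not divided by length, the difference was 0.12. Conserved members had a median of 76.0 ± 2.61 TPM in WT vehicle, and mitochondria-specific members 54.0 ± 1.88 TPM. Since TPM values are shares of a library, these levels are relative and not amounts per cell.

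**Figure D1:**
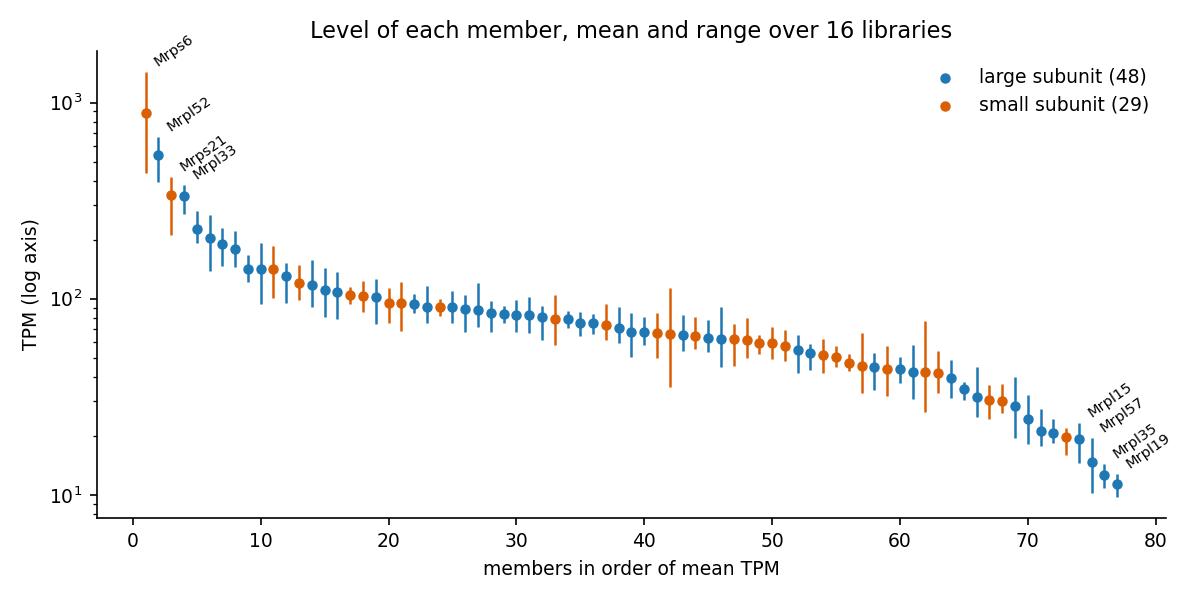
Mean level of each of the 77 members with counts, in order, in TPM on a log axis; points are means over 16 libraries, lines run from the lowest to the highest library, and colour gives the subunit by name. Mrps6 spans 439.8 to 1431 TPM at the top, and Mrpl19 lies at 11.3 TPM at the bottom.

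Under TMM scaling, most members rose with LPS + IFNγ in both genotypes. In WT litters, 55 of 77 members (71.4%) rose and 1 fell (edgeR quasi-likelihood test paired by litter, adjusted p below 0.05), where 23.7% of all 16062 genes tested rose and 20.2% fell. In KO litters, 44 members (57.1%) rose and 4 fell, where 25.3% of all genes rose and 24.2% fell. At an unadjusted p below 0.05 the counts were 60 up and 2 down in WT (26.9% and 24.4% of all genes) and 50 up and 6 down in KO (28% and 27.8% of all genes). The median log2 response of the members was 0.31 in WT and 0.25 in KO, against medians over all genes of -0.02 and -0.03. Of the members that rose, 40 were called in both genotypes, 15 in WT alone and 4, Mrpl1, Mrpl23, Mrpl39 and Mrpl46, in KO alone; 13 members were called in neither. A call in 1 genotype is not a difference between genotypes, which is tested below. With library totals, an alternative scaling given below, none of these 4 passed in KO (edgeR adjusted p = 0.052 to 0.872). Of those called in WT alone, Mrpl4 then did not pass (edgeR adjusted p = 0.189) and Mrpl18 did (edgeR adjusted p = 0.0146). The deposited log2 CPM was higher after stimulation in every WT litter for 62 of the 78 members, where 31.2% of all genes were, and in every KO litter for 55, where 29.6% were. It was lower in every WT litter for 2 members (30% of all genes) and in every KO litter for 5 (29% of all genes). In all 8 litters it was higher for 49 members, where 23.2% of all genes were, and lower for 1, Mrpl50, where 20.7% were. For Mrpl50 the difference in KO litter 1 was only -0.00011 log2 units, which is close to no change.

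Marker levels moved between the same cultures. Of 9 markers of the oligodendrocyte lineage, 6 fell and 0 rose in WT (edgeR, the same counts at an unadjusted p below 0.05; median log2 response -0.39) and 7 fell and 0 rose in KO (edgeR, likewise the same counts; median -0.94). Their sums went from 2339 to 2976 TPM in WT vehicle to 1675 to 2323 TPM, and from 2411 to 3176 TPM in KO vehicle to 1554 to 2168 TPM. Of 9 astrocyte markers, 3 rose and 3 fell in WT and 2 rose and 4 fell in KO. Of 4 cell-cycle genes, 1 fell in WT and 3 fell in KO. The sum of 6 neuronal markers was 18.8 to 27.2 TPM in vehicle and 66.4 to 105.1 TPM in stimulated libraries, with 2 up and 2 down in WT and 2 up and 3 down in KO. The part of these in the members' responses was not tested.

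The size of these responses and the number of calls depend on the scaling. With library totals in place of TMM factors, an alternative added after the responses were seen, the median of all genes moved to -0.18 in WT and -0.19 in KO. The members' medians moved with it to 0.15 and 0.08, and the counts were 33 up and 4 down in WT and 26 up and 11 down in KO. Of all 16062 genes, 2432 were then up and 5383 down in WT, and 2656 up and 5887 down in KO. Changing the scaling shifts all genes of a library nearly alike. The members' median therefore stayed 0.33 above that of all genes in WT and 0.28 above it in KO by construction, which is no test.

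The median responses of the subunits lay close together. In WT litters 31 of 48 large-subunit members rose and 1 fell, with a median log2 response of 0.31, and 24 of 29 small-subunit members rose and 0 fell (edgeR; 25 up and 0 down at an unadjusted p below 0.05), with a median of 0.31. In KO litters 28 large-subunit members rose and 2 fell (median 0.26), and 16 small-subunit members rose and 2 fell (median 0.24). Per litter, on the deposited log2 CPM, the median response of the large subunit was 0.28, 0.38, 0.39 and 0.28 in WT litters 1 to 4, and that of the small subunit was 0.27, 0.40, 0.37 and 0.34. In KO litters 1 to 4 these were 0.33, 0.31, 0.23 and 0.27 for the large and 0.28, 0.23, 0.26 and 0.29 for the small subunit. The litters of both subunits thus overlapped in each genotype. The division by origin showed as little: the conserved class had 33 of 44 up in WT and 25 in KO (medians 0.32 and 0.26), and the mitochondria-specific class 21 and 18 of 32 (medians 0.30 and 0.22). Moving Mrps18a and Mrps30 to the large subunit and leaving Mrps36 out changed the large-minus-small difference of the KO medians from 0.02 to 0.09. Across the 78 members, the mean responses of WT and KO litters had a Pearson r of 0.79 and a Spearman rho of 0.71; this is a description across genes that share libraries and scaling, and the 2 genotypes share no library.

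**Figure D2:**
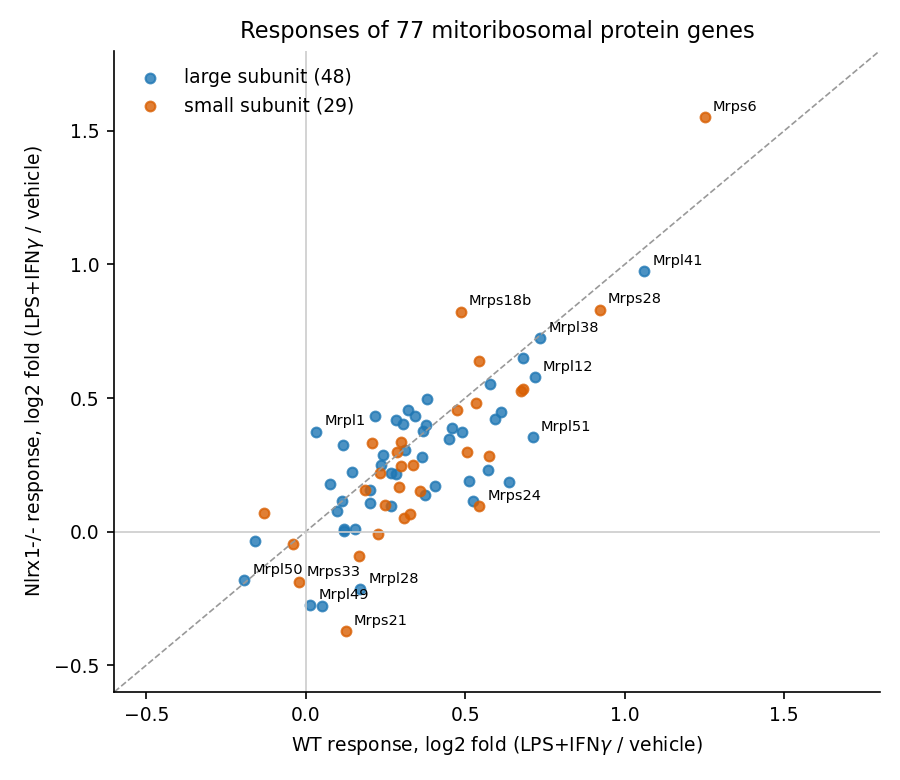
Log2 response to LPS + IFNγ of the 77 members with counts in WT litters (horizontal) and in Nlrx1-/- litters (vertical), by edgeR within litters; each point is 1 gene, coloured by subunit, and the dashed line marks equal responses. Most points lie above 0 on both axes, Mrps6 is the highest on both, and Mrps21 and Mrpl28 lie below 0 in Nlrx1-/- litters alone.

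Mrps6, the counterpart of bacterial S6 in the small-subunit platform, responded most. Its deposited level was 7.01, 7.14, 7.12 and 6.93 log2 CPM in WT vehicle litters 1 to 4 and 8.50, 8.41, 8.43 and 7.91 after LPS + IFNγ. In KO litters it was 7.02, 6.92, 7.41 and 6.83 in vehicle and 8.51, 8.76, 8.63 and 8.54 after stimulation. Stimulated and vehicle libraries did not overlap in either genotype. The rise was 2.38-fold in WT (log2 1.25, SE 0.10, adjusted p = 3.31e-06) and 2.93-fold in KO (log2 1.55, SE 0.10, adjusted p = 6.13e-07). Slc5a3, with which Mrps6 shares a start, rose as well, from 67.6 to 87.6 TPM in WT vehicle to 116 to 150 TPM, and from 58.9 to 84.9 TPM in KO vehicle to 132 to 178 TPM. Its log2 response was 1.06 in WT (edgeR adjusted p = 1.6e-05) and 1.29 in KO (edgeR adjusted p = 3.5e-06). Reads from the shared stretch could be assigned to either gene, and the part of this in the values was not tested. The summed level of the small subunit was 2435 to 2613 TPM in WT vehicle and 2957 to 3512 TPM in stimulated WT libraries, and 2553 to 2837 TPM and 3436 to 3676 TPM in KO. Without Mrps6, the 28 other members summed to 2084, 1948, 2014 and 1943 TPM in WT vehicle and 2211, 2140, 2228 and 2110 TPM after stimulation, higher in every litter and without overlap. In KO they summed to 2126, 2333, 2172 and 2113 TPM and then to 2217, 2190.5, 2275 and 2182 TPM, higher in litters 1, 3 and 4 and lower in litter 2.

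Mrpl41 and Mrps28 came next. Mrpl41, a mitochondria-specific protein of the large subunit (chr2:24862319-24865956, GRCm39, strand -), was at 4.32, 4.41, 4.32 and 4.39 log2 CPM in WT vehicle and at 5.48, 5.53, 5.56 and 5.15 after stimulation. Its KO values were 4.36, 4.51, 4.48 and 4.57, and then 5.45, 5.40, 5.54 and 5.47. The groups of a genotype did not overlap, and the log2 response was 1.06 in WT (SE 0.08, adjusted p = 3.68e-06) and 0.97 in KO (SE 0.08, adjusted p = 5.85e-06). Mrps28 (chr3:8865093-8988978, strand -) was at 3.58, 3.02, 3.40 and 3.21 log2 CPM in WT vehicle and at 4.44, 4.27, 4.20 and 4.02 after stimulation. In KO litters it was at 3.47, 4.40, 3.29 and 3.70, and then at 4.28, 4.69, 4.31 and 4.95. Here KO litter 2 was high in vehicle, above 2 stimulated KO libraries. The log2 response was 0.92 in WT (SE 0.14, adjusted p = 0.000468) and 0.83 in KO (SE 0.14, adjusted p = 0.000728).

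A further 5 members complete the largest increases. Mrpl38, a mitochondria-specific protein, rose by 0.74 log2 units in WT (SE 0.07) and 0.73 in KO (SE 0.07), and its litter responses lay between 0.55 and 0.93. Mrpl12, which forms the stalk of the large subunit, rose by 0.72 in WT (SE 0.08) and 0.58 in KO (SE 0.08), although KO litter 2 already stood at 6.09 log2 CPM in vehicle, against 5.48 to 5.55 in the other KO litters. Mrpl51 rose by 0.71 in WT (SE 0.06) and 0.35 in KO (SE 0.06). Its WT litter responses of 0.59 to 0.84 all lay above the KO responses of 0.36 to 0.39. Mrpl54 rose by 0.68 in WT (SE 0.09) and 0.65 in KO (SE 0.09). Mrps18b rose by 0.49 in WT (SE 0.11, edgeR adjusted p = 0.00487) and 0.82 in KO (SE 0.11, edgeR adjusted p = 0.00013). The litter responses of Mrps18b were 0.39, 0.71, 0.37 and 0.45 in WT and 0.84, 0.89, 0.44 and 1.14 in KO, and the genotypes overlapped.

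**Figure D3:**
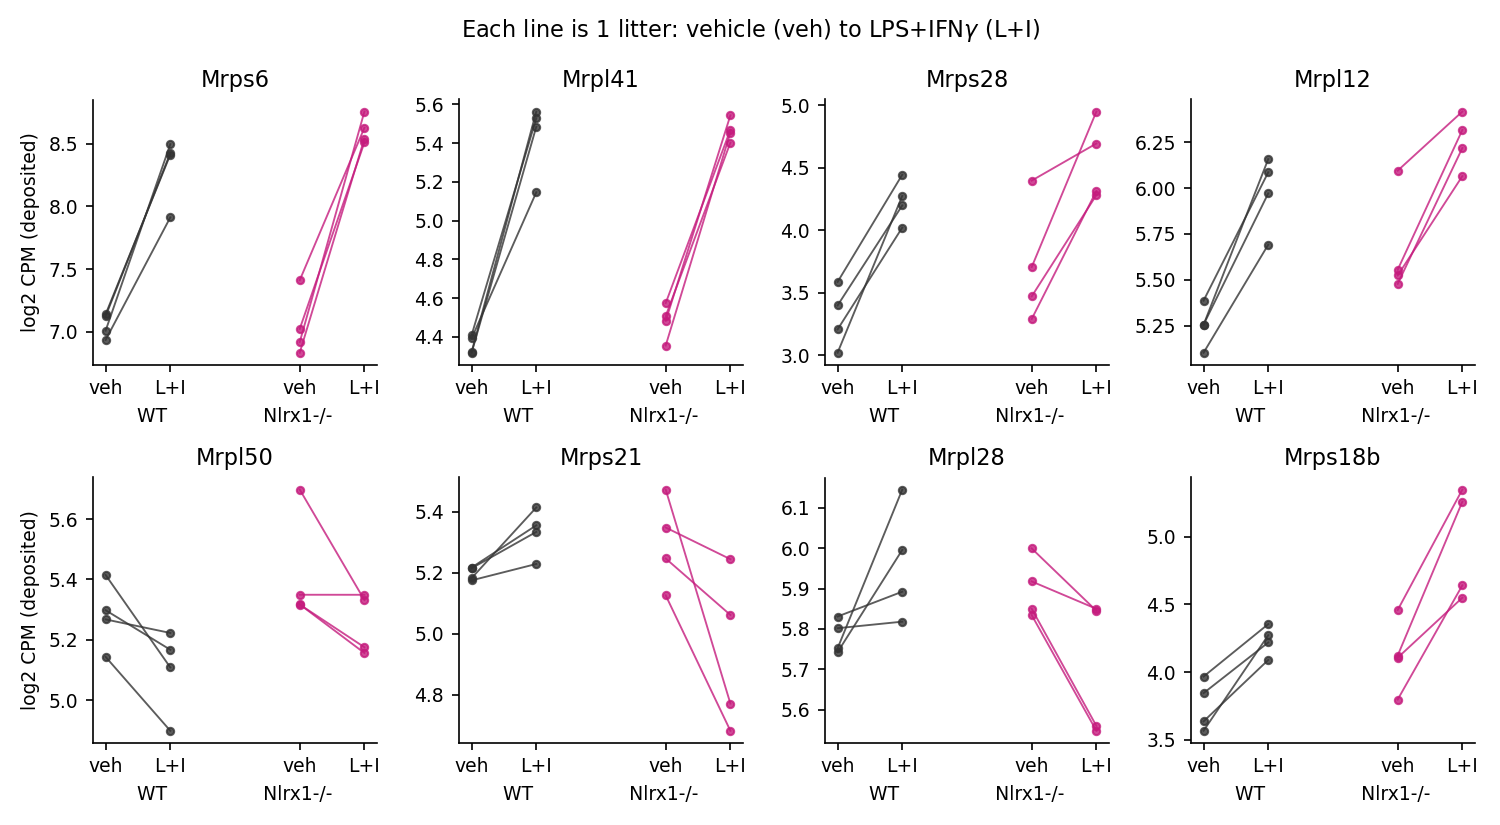
Deposited log2 CPM of 8 members in each library; every line joins the vehicle (veh) and the LPS + IFNγ (L+I) culture of 1 litter, WT in black and Nlrx1-/- in pink, and each panel has its own vertical scale. Mrps6 and Mrpl41 climb in every litter without overlap, and on this TMM-scaled measure Mrps21 and Mrpl28 go up in every WT litter and down in every Nlrx1-/- litter (with library totals the WT response of Mrps21 is -0.04).

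Few members fell. In WT litters, Mrpl50, a mitochondria-specific protein, was called lower: it was at 5.30, 5.41, 5.27 and 5.14 log2 CPM in vehicle and at 5.17, 5.11, 5.22 and 4.90 after stimulation. The groups overlapped, each litter was lower by 0.04 to 0.31, and the log2 response was -0.19 (SE 0.07, edgeR adjusted p = 0.0462). The call was lost without WT litters 1, 2 or 4 and without KO litters 1, 3 or 4, whose libraries share the estimate of spread. The KO response of Mrpl50 was -0.18 (edgeR adjusted p = 0.051). With library totals its log2 response was -0.35 in both genotypes (edgeR adjusted p = 0.00268 in WT and 0.00263 in KO). Mrpl24, Mrps22 and Mrps33 were then also called lower in WT, where 5383 of all 16062 genes were. In KO, where 5887 of all genes were, Mrpl9, Mrpl24, Mrpl33, Mrpl34, Mrpl48 and Mrps25 were called lower besides Mrpl50 and the members named next.

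In KO litters, Mrps21, Mrpl49, Mrpl28 and Mrps33 were called lower. Mrps21, the counterpart of bacterial S21, was at 5.25, 5.47, 5.35 and 5.13 log2 CPM in KO vehicle and at 5.06, 4.77, 5.24 and 4.68 after stimulation, a log2 response of -0.37 (SE 0.09, edgeR adjusted p = 0.0066). Litters 2 and 4 fell most, by 0.70 and 0.44, against 0.19 and 0.10 in litters 1 and 3. In WT litters Mrps21 was at 5.18, 5.18, 5.22 and 5.21 and then at 5.23, 5.41, 5.36 and 5.33, a log2 response of 0.13 that did not pass (edgeR adjusted p = 0.294) and was -0.04 with library totals. Mrpl49 had a KO log2 response of -0.27 (SE 0.07), Mrpl28 of -0.21 (SE 0.07) and Mrps33 of -0.19 (SE 0.06), each lower in all 4 KO litters. Without KO litters 2 and 4, an alternative added after these libraries were seen, 33 members rose in KO and 0 fell. That fit held fewer libraries and its share of all genes called is not given, so these counts are not read as a change of the members. The log2 responses without KO litters 2 and 4 were -0.15 for Mrps21, -0.19 for Mrpl49, -0.12 for Mrpl28 and -0.11 for Mrps33. Those 2 litters had the lowest KO astrocyte and cell-cycle sums after stimulation and the lowest KO astrocyte sums in vehicle. The part of this in the result was not tested.

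Members with an established place or role showed responses of differing size. In the stalk, which recruits translation factors, Mrpl10 anchors copies of Mrpl12 and rose by 0.34 log2 units in WT and 0.43 in KO. Mrpl11, the stalk base, rose by 0.40 in WT (edgeR adjusted p = 0.000785) and had 0.17 in KO, which did not pass (edgeR adjusted p = 0.0586). The 3 paralogs of bacterial S18 rose in both genotypes: Mrps18a by 0.48 and 0.45, Mrps18c by 0.68 and 0.53, and Mrps18b as given above. Mrpl45, which lies where the ribosome meets the inner membrane, rose by 0.38 and 0.40. Mrpl58, the peptidyl-tRNA hydrolase built into the large subunit, rose by 0.31 and 0.40. Mrpl44, related to ribonuclease III, had 0.10 and 0.08 and did not pass in either genotype (edgeR adjusted p = 0.356 and 0.471). Of small-subunit members, Mrps12, the counterpart of the decoding protein S12, rose by 0.29 in WT and had 0.17 in KO (edgeR adjusted p = 0.0543). Mrps27, a pentatricopeptide-repeat protein, rose by 0.53 and 0.48, and Mrps30 by 0.29 and 0.30. Mrps36 rose by 0.57 and 0.28. With library totals, Mrps12 and Mrpl58 were not called in WT, Mrps36 was not called in KO and Mrps30 was called in neither. Mrpl20, from the deposited values, had litter responses of 0.13 to 0.62 in WT and 0.15 to 0.43 in KO, and limma on log2 CPM gave 0.35 (SE 0.08, adjusted p = 0.00366) and 0.30 (SE 0.08, adjusted p = 0.00876).

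Members with the NRF1 letters in the promoter window had a median log2 response of 0.26 in WT and 0.28 in KO (n = 8), and those without had 0.30 and 0.22 (n = 60). For the ETS core the medians were 0.33 and 0.22 with it (n = 26) and 0.27 and 0.22 without it (n = 42). Among the sequences printed above, Mrpl32 rose by 0.32 in WT and 0.46 in KO, and Mrpl9 had 0.12 and 0.01 and did not pass. The WT call of Mrpl32 was lost with library totals. Overlap between neighbouring genes is common here: in GENCODE M39, 42 members overlap a protein-coding gene, 4 of them (Mrps6, Mrps15, Mrps24 and Mrps34) on the same strand. The libraries do not keep the strand, so reads of a member and of an antisense neighbour are told apart by sequence only. Mrpl46 and Mrps11 overlap each other head to head by 413 bases.

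Proteins of the same ribosome with other names followed in part. Chchd1 rose by 0.79 log2 units in WT and 0.63 in KO, and Gadd45gip1 by 0.33 and 0.29. Aurkaip1 rose by 0.29 in WT and had 0.02 in KO. Ptcd3 passed in neither response, and Dap3, a GTP-binding protein of the small subunit, had -0.09 in WT and fell by 0.16 in KO. Of 26 assembly factors, 5 rose and 2 fell in WT and 6 rose and 1 fell in KO, with medians of 0.13 and 0.08. Mpv17l2, which assists ribosome assembly at the inner membrane, rose by 0.83 in WT and 0.49 in KO, and Rcc1l by 0.69 and 0.58. Of 12 factors of mitochondrial translation, 4 rose in WT (Gfm1, Gfm2, Tsfm and Tufm) and 3 in KO (Gfm1, Gfm2 and Tsfm). Of the 4 genes of mitochondrial transcription, Polrmt, the RNA polymerase, fell by 0.32 and Tfb2m by 0.27 in WT, and Tefm, the elongation factor, rose by 0.61 in KO. With library totals the median of the assembly factors was -0.03 in WT and -0.08 in KO, and that of the translation factors -0.09 and -0.07, so the direction of these medians depends on the scaling. Aurkaip1 and Tufm were then not called in WT, nor Gadd45gip1, Gfm2 and Tsfm in KO. Ptcd3, Dap3 and Tfam were then called lower in WT (-0.24, -0.25 and -0.20), and Polrmt and Tfb2m in KO (-0.29 and -0.32). Of the assembly factors, 7 were called lower in WT and 4 in KO with library totals, and of the translation factors 2 and 1.

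The nuclear genes of the respiratory chain and those of the cytosolic ribosome were set beside the members. Of 82 nuclear genes of the respiratory chain, 71 rose and 0 fell in WT (edgeR; 73 up and 1 down at an unadjusted p below 0.05), with a median of 0.39, and 38 rose and 3 fell in KO, with a median of 0.17. Of 80 genes of the cytosolic ribosome, 35 rose and 1 fell in WT, with a median of 0.13, and 3 rose and 4 fell in KO, with a median of -0.01. With library totals the cytosolic ribosome had 4 up and 12 down in WT (median -0.03) and 0 up and 54 down in KO (edgeR; median -0.17), and on the TPM scale its median level was 1761 ± 97.2 TPM in WT vehicle and 1697 ± 97.5 TPM after stimulation (SD, n = 4), so its direction depends on the scaling. The respiratory chain then had 46 up and 2 down in WT (median 0.23) and 17 up and 11 down in KO (median 0.01). Per litter, on the deposited log2 CPM, the median response of the cytosolic ribosome was 0.06, 0.15, 0.25 and 0.10 in WT and 0.03, -0.01, 0.03 and -0.03 in KO, without overlap. For the respiratory chain it was 0.24, 0.42, 0.46 and 0.41 in WT and 0.18, 0.12, 0.22 and 0.23 in KO, also without overlap. For the 78 members it was 0.27, 0.38, 0.39 and 0.29 in WT and 0.30, 0.27, 0.24 and 0.28 in KO, and here the litters overlapped.

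**Figure D4:**
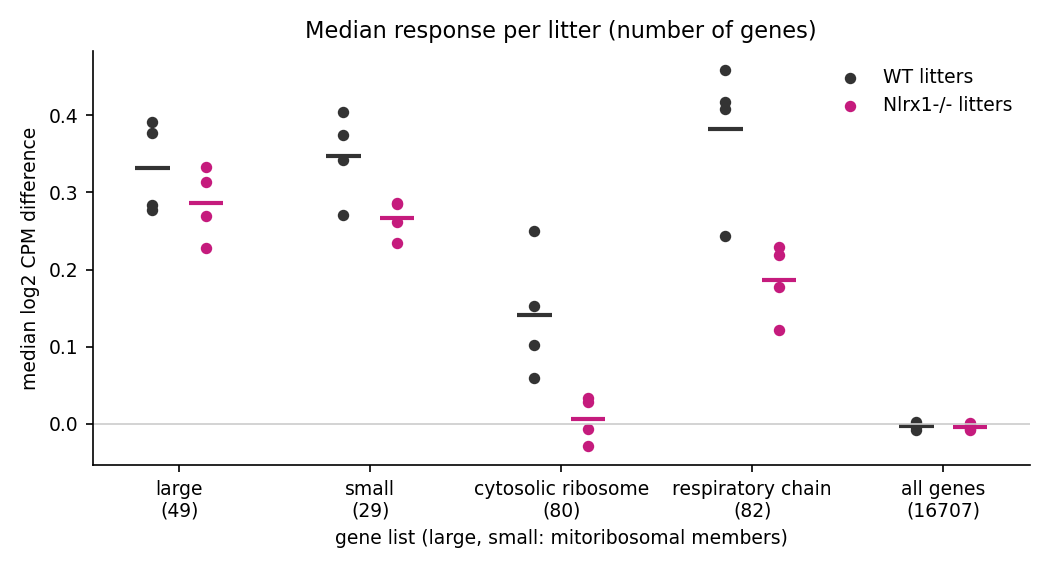
Median log2 CPM difference between the LPS + IFNγ and the vehicle culture of each litter for 5 gene lists; points are litters (4 per genotype), bars are means, and the number of genes is in brackets. WT and Nlrx1-/- litters overlap for both subunits of the mitochondrial ribosome and do not overlap for the cytosolic ribosome and the respiratory chain.

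Whether the response depended on the genotype was tested as an interaction. The test called 0 members (edgeR), where 0% of all genes were called in either direction; DESeq2 called 0 members as higher, where 0.878% of the genes it gave an adjusted p were called, and 3 as lower (Mrpl51, Mrps21 and Mrps24), where 1.46% were. At an unadjusted p below 0.05, 1 member had a larger response in KO, where 5.9% of all genes did, and 14 had a smaller one (18.2%), where 9.48% of all genes did. The members' median interaction was -0.07, against -0.02 over all genes. The lowest unadjusted p belonged to Mrpl51, with an interaction of -0.36 log2 units (SE 0.08, edgeR adjusted p = 0.217), followed by Mrps24 with -0.45 (SE 0.10, edgeR adjusted p = 0.217), Mrps21 with -0.50 (SE 0.13, edgeR adjusted p = 0.22) and Mrpl28 with -0.39 (SE 0.10, edgeR adjusted p = 0.223). For Mrps24, the litter responses were 0.46, 0.51, 0.69 and 0.56 in WT and 0.13, -0.02, 0.26 and 0.07 in KO, without overlap. Mrps24 overlaps Urgcp on the same strand. For Mrpl28, they were 0.02, 0.06, 0.39 and 0.25 in WT and -0.07, -0.29, -0.15 and -0.29 in KO, so that every litter of one genotype moved against every litter of the other on this TMM-scaled measure. With library totals the WT response of Mrpl28 was 0.01. In the other direction Mrpl1 had 0.34 (SE 0.15), Mrps18b 0.34 (SE 0.16), Mrps6 0.30 (SE 0.14) and Mrpl23 0.21 (SE 0.10), none of which passed (edgeR adjusted p = 0.313 to 0.354).

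In vehicle cultures, the members' median was higher in KO, and edgeR called 0 members in either direction, where 0% of all genes were called. DESeq2 called 10 as higher, where 3.14% of the genes it gave an adjusted p were called, and 0 as lower, where 1.93% were. At an unadjusted p below 0.05, 31 members were higher (40.3%), where 11% of all genes were, and 0 were lower, where 8.57% were. The median difference was 0.19 log2 units, against 0.00 over all genes, and 72 of 77 members had a positive one. Groups without overlap were counted on the deposited log2 CPM: in 24 of the 78 members the KO litters were all higher than the WT litters, as in 6.02% of all genes, and in 0 they were all lower, as in 3.43%. The count was 38 of 80 for cytosolic ribosomal and 39 of 82 for respiratory-chain genes. The lowest p belonged to Mrps34, at 4.72, 4.56, 4.70 and 4.66 log2 CPM in WT and 4.78, 5.15, 5.03 and 4.95 in KO, a difference of 0.31 (SE 0.07, edgeR adjusted p = 0.111). Mrps18a differed by 0.23 (SE 0.06), Mrpl38 by 0.33 (SE 0.09) and Mrpl21 by 0.31 (SE 0.09), with edgeR adjusted p of 0.112, 0.113 and 0.121. The 5 negative differences, of Mrpl46 (-0.07, SE 0.11), Mrpl39 (-0.03, SE 0.07), Mrps9, Mrpl24 and Mrps6, were all smaller than their standard errors, and those of Mrpl46, Mrpl39, Mrps9 and Mrpl24 changed sign under other settings. Astrocyte markers did not pass in this comparison, with 7 of 9 negative and a median of -0.40, nor did those of the oligodendrocyte lineage, with 6 of 9 negative and a median of -0.58. The astrocyte sums in vehicle were 2623 and 2971 TPM in KO litters 2 and 4, against 3638 and 4434 TPM in KO litters 1 and 3. The part of these in the members' differences was not tested.

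After LPS + IFNγ, 5 members were higher in KO (6.49%), where 2.65% of all genes were, and 1 was lower, where 2.38% were (edgeR). At an unadjusted p below 0.05 the counts were 22 higher and 4 lower (13.5% and 14.9% of all genes). The median difference of the members was 0.10 log2 units, against -0.01 over all genes. Mrps18b, a small-subunit protein, was at 4.36, 4.27, 4.22 and 4.09 log2 CPM in stimulated WT and at 4.64, 5.35, 4.55 and 5.26 in stimulated KO cultures. The groups did not overlap, KO litters 2 and 4 were the highest, and the difference was 0.74 (SE 0.18, edgeR adjusted p = 0.0413). Mrpl1, the counterpart of the L1 stalk protein, was at 4.30, 4.17, 4.20 and 4.14 in WT and 4.59, 4.73, 4.47 and 4.88 in KO, a difference of 0.46 (SE 0.12, edgeR adjusted p = 0.045). Mrps2 was at 5.41, 5.36, 5.17 and 5.31 in WT and 5.70, 5.95, 5.53 and 5.79 in KO, a difference of 0.41 (SE 0.10, edgeR adjusted p = 0.0396). Mrps22 was at 4.77, 4.81, 4.67 and 4.52 in WT and 4.93, 5.12, 5.05 and 5.25 in KO, a difference of 0.38 (SE 0.09, edgeR adjusted p = 0.0413). Mrpl38 differed by 0.32 (SE 0.09, edgeR adjusted p = 0.0472). For these 5 every KO litter lay above every WT litter.

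Mrps21 was the member called lower, at 5.23, 5.41, 5.36 and 5.33 log2 CPM in WT and 5.06, 4.77, 5.24 and 4.68 in KO, a difference of -0.39 (SE 0.11, edgeR adjusted p = 0.0497) in which KO litter 3 overlapped the WT range. These calls depended on single litters: 0 members were called in either direction (edgeR) without WT litter 2, 3 or 4, without KO litter 2 or 4, or from the 8 stimulated libraries alone. Without KO litter 1 the counts were 1 higher and 0 lower, without KO litter 3 they were 13 and 3, and without WT litter 1 they were 5 and 2. For these fits and the next, the share of all genes called is not given. A change of the members therefore cannot be told from a change in all calls. Without KO litters 2 and 4 together, Mrps18b differed by 0.34, Mrpl1 by 0.32, Mrps2 by 0.28, Mrps22 by 0.29, Mrpl38 by 0.16 and Mrps21 by -0.19, with 0 called (edgeR). In the same libraries, 4 of 9 astrocyte markers were called lower in KO, with a median of -0.91, and 1 of 9 markers of the oligodendrocyte lineage was called lower (6 at an unadjusted p below 0.05), with 8 negative and a median of -0.84. The part of these in the members' differences was not tested. Without overlap on the deposited log2 CPM, 12 of the 78 members were higher in KO (7.09% of all genes) and 1, Mrpl51, was lower (6.23% of all genes).

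**Figure D5:**
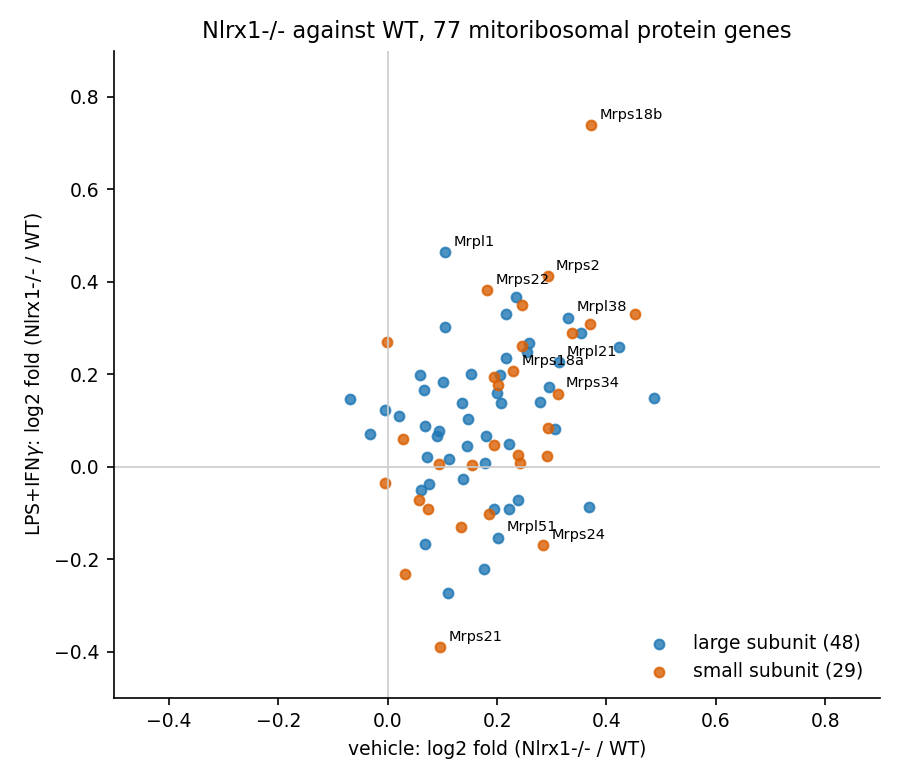
Log2 difference between Nlrx1-/- and WT cultures of the 77 members with counts, in vehicle (horizontal) and after LPS + IFNγ (vertical), by edgeR over 4 litters per genotype; each point is 1 gene, coloured by subunit. In vehicle 72 points lie to the right of 0, and after stimulation Mrps18b is the highest at 0.74 and Mrps21 the lowest at -0.39.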

How the data were processed

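RNA of 16 astrocyte cultures (4 litters in each of 4 conditions) was sequenced as poly-A, non-stranded paired-end libraries. The authors quantified transcripts with Salmon 1.7.0 against the GRCm39 RefSeq transcriptome, and the deposited quantification of each library holds estimated counts (expected counts, not normalised) and TPM per transcript. From length-scaled counts, filtered for low expression and scaled by TMM, the authors made the deposited gene table of CPM (treated as a signal) and of log2 CPM with limma 3.58.1.

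Expected counts were summed per gene and rounded. Transcripts were paired with symbols by RefSeq accession for 106430 of 129698 transcripts, which carried 96.7 to 97.3% of the reads of a library. Libraries held 27259420 to 43752903 read pairs, and the lowest count of a member other than Mrpl20 was 219. Differences were tested with edgeR 4.0.16 (quasi-likelihood, R 4.3.3) with TMM factors, offsets for transcript length and filterByExpr (minimum count 10), over 16062 genes; p-values were two-sided and adjusted by the Benjamini-Hochberg method, and calls needed an adjusted p below 0.05. Responses and their interaction with genotype were fitted with terms for the litter, and KO against WT without them. Deviations of the vehicle and the stimulated library of a litter from their group means had correlations of 0.0733 to 0.355. Between vehicle and stimulated libraries of different litters of a genotype they were -0.353 to 0.154, so the ranges overlapped. The pairing rests on the labels, which state that both libraries of a pair come from 1 litter. Same-numbered litters of WT and KO share only a number. For the responses and the interaction, the p-values measure the spread of within-litter differences between litters. For KO against WT, all 16 libraries entered without litter terms, so the vehicle and the stimulated culture of a litter counted as independent in the estimate of spread. TPM levels were compared on the log2(TPM + 1) scale. The scripts were tested on simulated data.

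Named genes were up to 6 called members with the largest change in each direction, the 4 with the lowest p in each direction where none was called, the 4 highest and 4 lowest in TPM, and members with an established role. Members and lists were chosen with earlier results of these data known. Alternatives were DESeq2 1.42.0, limma on the deposited log2 CPM, DESeq2 size factors, no length offsets, no filter, an adjusted p below 0.01, the fit with or without litter terms, the libraries of 1 treatment alone, each litter left out in turn and, added after the data were seen, library totals in place of TMM and the omission of KO litters 2 and 4. Promoter windows (RefSeq, GRCm38.p6) were placed on GRCm39 by exact match.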

Additional observations from a re-analysis of the deposited data

Results flagged for a closer look

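In groups of 4 litters, the highest or lowest library was compared with its nearest neighbour, and the library was marked where the gap, as a share of the range of the group, was above Dixon's critical value. This was done in 252 groups of 42 genes, and chance marks about 1 group in 20. The number of marks listed here is close to that share, so no single mark is read as a result. On the log2 CPM scale, KO litter 2 stood apart in vehicle for Mrpl12 (6.09) and Mrpl50 (5.70), and after LPS + IFNγ for Mrpl39 (5.63) and Mrps18a (5.35). KO litter 1 stood apart after stimulation for Mrpl51 (5.69). WT litter 4 stood apart in vehicle for Mrpl51 (4.90) and Mrps2 (5.15) and after stimulation for Mrps6 (7.91). In stimulated WT cultures, litter 1 stood apart for Mrps34 (5.26), litter 2 for Mrpl54 (4.54) and litter 3 for Mrps36 (4.67). Among log2 responses, WT litter 4 was low for Mrps27 (0.47) and WT litter 2 was high for Mrps28 (1.25).

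Mrps21 and Mrpl28 were higher after stimulation in every WT litter and lower in every KO litter on the deposited, TMM-scaled log2 CPM. With library totals the WT response of Mrps21 was -0.04 and that of Mrpl28 was 0.01. The mean WT response exceeded the mean KO response by 0.49 log2 units for Mrps21 and by 0.38 for Mrpl28. The interaction did not pass for either (edgeR adjusted p = 0.22 and 0.223).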

How the results depend on the processing

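The members' median differences kept their sign in all 5 comparisons under every alternative run, while counts of calls moved. In WT litters 1 member was called lower, against 0 at an adjusted p below 0.01, with limma, without a filter or with no replicate block, 4 with library totals and 2 without KO litters 2 and 4. With library totals 33 were called higher in WT (median 0.15) and 26 higher and 11 lower in KO (median 0.084). Of all 16062 genes, 2432 were then higher and 5383 lower in WT, and 2656 higher and 5887 lower in KO. In KO litters 2 were called lower at an adjusted p below 0.01 and 0 without KO litters 2 and 4, and limma gave a median of 0.28. DESeq2 called 3 lower in the interaction and 10 higher in KO vehicle cultures. Between stimulated KO and WT cultures the counts higher and lower were 12 and 3 with DESeq2, 8 and 2 with limma, 3 and 0 without a filter, 4 and 0 with library totals, 10 and 3 with a replicate block, and 0 and 0 at an adjusted p below 0.01, from the 8 libraries of the treatment, or without KO litters 2 and 4. The causes were not tested, except that a stricter threshold cannot call more. Smaller sets of libraries called fewer in some comparisons and more in others. Here and below, counts without a share of all genes called do not tell a change of the members from one of all calls.

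Leaving out 1 litter at a time, 46 to 56 members were called higher and 0 to 1 lower in WT, and 38 to 45 higher and 2 to 6 lower in KO (2 without KO litter 2 or 4, 6 without KO litter 1). The interaction gave 0 higher and 0 to 2 lower (2 without KO litter 3), vehicle 0 to 6 higher and 0 lower (6 without KO litter 3), and stimulated cultures 0 to 13 higher and 0 to 3 lower. The pairing of vehicle and stimulated cultures by litter is in the labels. With no replicate block the responses gave 47 higher in WT, 40 higher and 3 lower in KO, and 0 in the interaction. A replicate block for equal numbers of WT and KO litters, which share only a number, gave 0 calls in vehicle.

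With library totals, 60 of 77 members had a positive response in WT and 50 in KO, against 72 and 67. Among the named members, signs turned for 4 between KO and WT in vehicle, all near 0. Mrpl24 was 0.0062 with limma and 0.0012 from the 8 libraries, and -0.047 to 0.029 with 1 litter left out. Mrps9 was 0.0019 with limma and 0.042 without KO litters 2 and 4, and -0.056 to 0.044 with 1 litter left out. Without KO litters 2 and 4, Mrpl39 was 0.0067 and Mrpl46 was 0.014, and with 1 litter left out they were -0.065 to 0.0038 and -0.15 to 0.0069. With 4 litters per genotype, differences near the standard errors were not detectable.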
